A study of Homo sapiens with 6 samples.

Results

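A set of 39 genes of DNA replication and of the passage from G1 into S phase (the G1/S step), out of 57290 genes with values in the libraries, were followed in KMM1 cells with and without TAZ. The genes were chosen by name, and the transcripts that carry these names were summed per gene. KMM1 is an established human multiple myeloma cell line, a tumour line of plasma cell origin. The TAZ group had received a lentivirus that expresses TAZ, a transcriptional co-activator that the Hippo pathway holds in check and that WWTR1 encodes. The control group had received the empty vector WPI, so both groups carried a lentiviral vector. Polyadenylated RNA was taken 4 days after transduction, and each group had 3 libraries. The labels give no separate cultures for the 3 libraries of a group, so every p-value refers to the spread among these libraries, which may be technical. The sources used here give neither the promoter that drives the TAZ transgene nor the share of cells transduced.

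Before S phase, the origin recognition complex (ORC), CDC6 and CDT1 load the MCM helicase onto replication origins, which licenses them. Cyclin E with CDK2 then acts on the retinoblastoma proteins, E2F transcription factors drive the transcription of replication genes, and CDC45 and the GINS complex turn the loaded MCM ring into the active helicase that polymerases, the PCNA clamp and its loader follow. Many of these genes carry E2F binding motifs just ahead of their start sites, and their RNA is known to be high in dividing cells.

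The promoters of the 6 genes with the smallest p-values in the comparison of TAZ with control are shown first, because E2F motifs near the start are the sequence feature that this gene set is known for. Each line gives the 100 bases before the RefSeq start (assembly GRCh38.p14, a different build from the hg19 of the expression files), 5′ to 3′ in the direction of the gene, and capitals mark a match to an E2F-type motif on either strand. The intervals are chr16:85688955-85689054 on the minus strand for GINS2, chr10:13161458-13161557 on the plus strand for MCM10, chr17:40287779-40287878 on the plus strand for CDC6, chr11:61792811-61792910 on the plus strand for FEN1, chr1:23531234-23531333 on the minus strand for E2F2 and chr1:52404424-52404523 on the minus strand for ORC1.
GINS2: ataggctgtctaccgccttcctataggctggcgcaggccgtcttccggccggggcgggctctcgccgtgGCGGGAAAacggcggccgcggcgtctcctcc
MCM10: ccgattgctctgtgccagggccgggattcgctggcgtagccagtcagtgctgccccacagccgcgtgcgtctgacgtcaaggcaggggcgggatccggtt
CDC6: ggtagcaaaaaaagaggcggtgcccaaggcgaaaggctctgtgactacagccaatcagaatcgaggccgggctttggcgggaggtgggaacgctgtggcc
FEN1: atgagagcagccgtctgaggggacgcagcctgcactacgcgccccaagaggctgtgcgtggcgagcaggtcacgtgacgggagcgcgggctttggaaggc
E2F2: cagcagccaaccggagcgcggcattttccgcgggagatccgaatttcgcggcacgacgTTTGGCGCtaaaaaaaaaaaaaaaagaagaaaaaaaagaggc
ORC1: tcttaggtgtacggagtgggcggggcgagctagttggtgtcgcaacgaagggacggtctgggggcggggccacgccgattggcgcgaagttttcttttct

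The letters searched were TTTCCCGC, TTTGGCGC, TTTCGCGC and TTTGCCGC, on both strands. TTTGGCGC and TTTCGCGC overlap one another where they meet on opposite strands, as in MCM6. The search covered the RefSeq windows of 300 bases (250 before and 50 from the start). Of the 39 genes, 34 had a window in the RefSeq table, and 21 of the 34 (61.8%) held at least 1 match, against 1090 of 27305 genes (3.99%) in the whole table. By window the shares were 22 of 46 (47.8%) for the set and 3.31% of all 35116 windows. Among the shown genes, the GINS2 match begins 31 bases and the E2F2 match 42 bases before the start, while the CDC6 window holds its match 8 bases into the transcript, outside the printed stretch. No match in MCM10, FEN1 or ORC1, or in the printed stretch of CDC6, says only that these exact letters are not there. The printed CDC6 stretch holds tttggcggg, which differs from TTTGGCGC at its end and was not searched for. A match is a description of the letters, not a measured site of binding, since binding was not assayed here.

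Aligned sequence came to 1099.95 megabases in the shallowest library and 2033 in the deepest, of which 73.6% to 75.9% lay on annotated transcripts. Control library 3 was the shallowest, and its correlation with the other controls (0.897 and 0.926) was below the 0.939 between those. For some of the genes that it moved, though not all, the difference is therefore given with and without it. WWTR1, the expressed gene, checked the labels: the controls held 2.35, 1.21 and 1.40 scaled TPM of it and the TAZ libraries 365, 138 and 145 (log2 difference 6.22 ± 0.41, limma adjusted p = 8.35e-04). The libraries also held the RNA of plasma cells: 8 of 8 plasma cell markers were at 1 TPM or more, with a summed level of 1035 to 1818 scaled TPM in the controls and 1060 to 1254 in the TAZ libraries. Of the 8, SDC1 (185 to 204 in the controls against 65.5 to 79.6 with TAZ) and IRF4 (348 to 527 against 185 to 222) fell, the other 6 were not called, and the call of IRF4 was lost without scaling (adjusted p = 0.1502). Of 5 epithelial markers, 2 rose, KRT8 (120 to 210 against 864 to 2217) and KRT18, while CDH1 (37.0 to 57.0 against 17.1 to 30.2) and EPCAM (22.5 to 73.7 against 42.3 to 53.2) were not called and KRT19 was at or near 0 in all 6 libraries. That list's sum, mostly KRT8, was 194 to 322 in the controls and 957 to 2294 in the TAZ libraries. The 4 T and NK cell markers summed to 1.14 at most and the 4 fibroblast markers to 3.48 at most. The 4 myeloid markers summed to 3.45 to 5.24 in the controls and 1.47 to 1.90 with TAZ, nearly all of it CD14, which fell (adjusted p = 0.0435, and 0.0887 without scaling). The part of these markers in the values of the replication genes was not tested.

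No gene of the set passed the test. TPM, the deposited length-adjusted share of transcripts, was scaled between libraries, genes of at least 1 TPM on average were tested on log2(scaled TPM + 1), and a gene counted as changed at an adjusted p under 0.05 over all 19390 tested genes. By this rule 0 of the 39 were called, against 3.21% of all tested genes, and the smallest adjusted p was 0.117 for GINS2. At an unadjusted p under 0.05 stood 10 of the 39, all of them lower with TAZ, beside 10.5% of all tested genes in that direction. Of the 39 log2 differences, 28 were below 0 and 11 above, with a median of -0.25, beside -0.05 for all tested genes.

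The order of the libraries gave a similar picture. In 14 of 39 genes (35.9%) every TAZ library was below every control, against 14.8% of all tested genes, and in 0 of 39 every TAZ library was above every control, against 10.1%. The set is made of well expressed genes, and among the 9272 genes of at least 10 TPM the share lower without overlap was 19.3%, beside 12 of the 34 members (35.3%) of that level. The median difference of those 9272 genes was -0.13 and that of the 34 members -0.24.

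**Figure D1:**
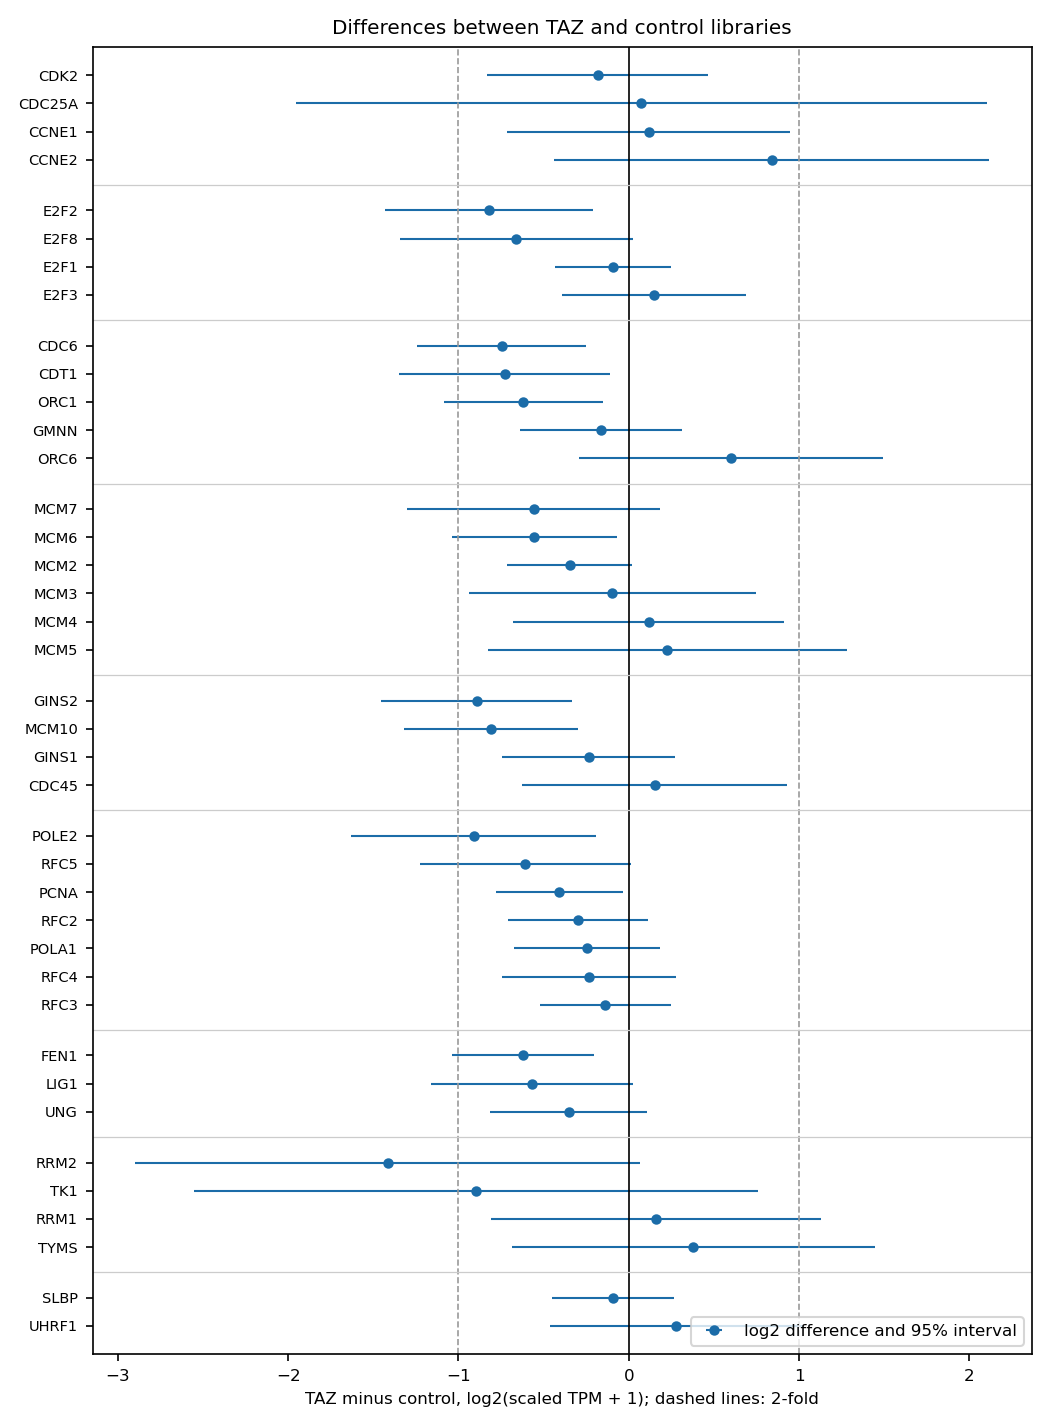
Difference between TAZ and control for each of the 39 genes on log2(scaled TPM + 1), with points for the limma estimate and bars for its 95% interval, ordered by role from cyclin E-CDK2 at the top to chromatin at the bottom, with dashed lines at 2-fold. 28 points lie to the left of 0, 10 intervals exclude 0 and all of those are on the lower side.

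The size of the differences was bounded better for some genes than for others. The 95% interval lay within a 2-fold change in both directions for 17 of the 39 genes. It excluded a 2-fold rise for 32 genes and a 2-fold fall for 23. The standard errors ran from 0.14 to 0.85, with a median of 0.25 that was close to the 0.24 of all tested genes. The intervals of E2F1 and PCNA were among the narrow ones, and those of CDC25A, TK1 and RRM2 were wide enough to hold changes of over 2-fold.

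These values depend on the scaling between libraries. With TPM as deposited, 0 of the 39 were called against 3.19% of all genes, 1 gene was lower at an unadjusted p under 0.05 against 3.57%, the median difference was 0.002, 19 genes were below 0 and 20 above, and 3 genes (GINS2, FEN1 and CDT1) were lower without overlap against 5.67% of all genes. The median of all tested genes moved with it, from -0.05 to 0.17. Relative to that median, the set's median was -0.19 with scaling and -0.16 without. Over all genes the calls were 436 higher and 187 lower with scaling, and 533 higher and 85 lower without. POLA1, GINS1, RFC4, RFC3, GMNN, CDK2, E2F1, SLBP and MCM3 were below 0 with scaling and above 0 without it.

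**Figure D2:**
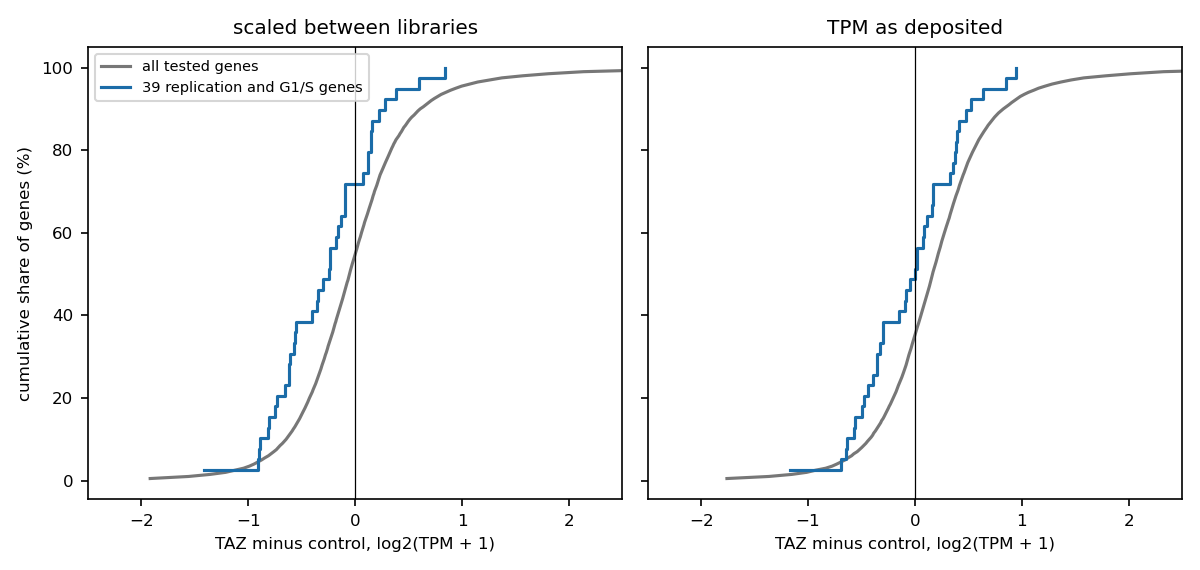
Cumulative share of genes (vertical axis, percent) by log2 difference between TAZ and control (horizontal axis), for all 19390 tested genes in grey and the 39 genes in blue, with scaling on the left and TPM as deposited on the right. Over most of the range the blue line lies to the left of the grey one in both panels, but in the lower tail the lines cross, since RRM2 alone of the 39 lies among the lowest differences. Both lines are further right without scaling.

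The E2F factors differed among themselves, with 3 of 4 below 0 and 2 of 4 lower in every TAZ library. Beside this and the role counts that follow, 54.8% of all tested genes were below 0 and 14.8% were lower without overlap. Each role holds few genes. E2F2, an activator E2F, had control levels of 77.6, 66.2 and 41.0 scaled TPM and TAZ levels of 32.8, 32.4 and 34.9. Its 3 TAZ values lay close together below every control, with control 3 nearest to them (log2 difference -0.82 ± 0.25, adjusted p = 0.176). E2F8, an atypical E2F that represses E2F targets late in S phase, was at 11.7, 9.81 and 5.26 in the controls and 4.42, 5.41 and 5.27 with TAZ. Control 3 fell inside the TAZ range for this gene (-0.66 ± 0.28, adjusted p = 0.290). E2F1, the best known activator, was the steadiest gene of the set, at 122.6, 118.1 and 113.6 in the controls and 109.2, 111.6 and 110.7 with TAZ. Its groups did not overlap, but the difference was small (-0.09 ± 0.14, 95% interval -0.43 to 0.25). E2F3, another activator, was at 8.52 ± 2.55 in the controls and 9.37 ± 1.15 with TAZ (SD, n = 3). The ratio of E2F1 to E2F2 was 1.58, 1.78 and 2.77 in the controls and 3.33, 3.45 and 3.17 with TAZ, without overlap. That of E2F1 to E2F8 overlapped, at 10.5, 12 and 21.6 against 24.7, 20.6 and 21. That of MCM2 to MCM6 also overlapped, at 4.21, 3.56 and 5.31 against 4.82, 4.51 and 5.79. None of the ratios given here or below was tested.

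Among the licensing genes, 4 of 5 were below 0, with a median difference of -0.62. In 3 of 5 every TAZ library was lower, beside 14.8% of all tested genes. CDC6, the ATPase that recruits CDT1 and MCM to the origin, was at 51.8, 40.2 and 33.5 in the controls and 22.4, 27.3 and 23.0 with TAZ. All 3 TAZ libraries were below the lowest control, control 3 (-0.75 ± 0.21, adjusted p = 0.136). CDT1, the MCM loading factor, was at 44.6, 51.4 and 63.5 in the controls, and 43.5, 28.9 and 24.5 with TAZ. Here TAZ library 1 lay just under the lowest control and TAZ libraries 2 and 3 well below (-0.73 ± 0.26, adjusted p = 0.222). ORC1, the large subunit of the origin recognition complex that varies through the cell cycle, was at 12.2, 9.17 and 8.41 against 6.14, 6.79 and 5.27. Its groups were also separate (-0.62 ± 0.19, adjusted p = 0.178).

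The other licensing genes differed from these. GMNN (geminin), the inhibitor that binds CDT1 after S phase begins, was at 25.9 ± 5.83 in the controls and 22.7 ± 1.78 with TAZ, and the groups overlapped. The ratio of CDT1 to GMNN was 2.07 ± 0.14 in the controls and 1.41 ± 0.36 with TAZ (SD, n = 3), and each TAZ library was below each control. ORC6, a small ORC subunit, had the second largest difference above 0 in the set, at 13.2, 36.9 and 24.9 in the controls and 28.7, 42.5 and 36.5 with TAZ. Control 1 was the lowest library, and the groups overlapped (0.60 ± 0.37, adjusted p = 0.442). The difference was 0.22 without control 1, 0.93 without control 2 and 0.65 without control 3.

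Subunits of the MCM helicase spread between -0.56 and 0.23, with 4 of 6 below 0. MCM6 was at 41.8, 43.2 and 31.7 in the controls and 25.5, 30.7 and 22.2 with TAZ. TAZ library 2 came within 1 scaled TPM of control 3, and the groups did not overlap (-0.55 ± 0.20, adjusted p = 0.233). MCM2 was at 166 ± 11.5 against 130 ± 7.79, again with every TAZ library lower (-0.35 ± 0.15, adjusted p = 0.296). MCM7 was the most abundant gene of the set, at 276, 364 and 356 in the controls and 344, 203 and 159 with TAZ. TAZ library 1 was as high as the controls and TAZ libraries 2 and 3 were below all of them (-0.56 ± 0.31, adjusted p = 0.395). MCM3 was at 166 ± 81.5 and 143 ± 8.30, MCM4 at 189 ± 77.6 and 192 ± 10.98, and MCM5 at 32.9 ± 8.29 and 43.2 ± 28.5, in controls and TAZ libraries in turn. For MCM3 and MCM4 the spread lay mainly in the controls, and for MCM5 it lay in TAZ library 1, at 76.0. The sign turned for MCM4 without control 3 (from 0.12 to -0.25) and for MCM5 without TAZ 1 (from 0.23 to -0.27).

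Helicase activation held the gene with the smallest p. GINS2, the Psf2 subunit of the GINS complex, was at 72.1, 65.5 and 48.4 in the controls and 39.1, 25.8 and 33.9 with TAZ. The groups were separate, with control 3 the lowest control (-0.89 ± 0.23, 95% interval -1.45 to -0.33, adjusted p = 0.117). MCM10, which helps the CMG helicase (CDC45, MCM and GINS) to start unwinding, was at 16.7, 15.3 and 10.96 against 6.37, 8.63 and 8.05. Its highest TAZ library was below its lowest control, again control 3 (-0.81 ± 0.21, adjusted p = 0.119). GINS1, another GINS subunit, was at 29.9 ± 4.46 and 25.5 ± 5.20, and CDC45 at 13.9 ± 2.36 and 16.5 ± 8.01, with overlap in both. For CDC45, TAZ library 2 stood out at 25.7 and the other TAZ libraries were near the controls.

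All 7 genes of polymerases, clamp and clamp loader were below 0. In 3 of them every TAZ library was lower, beside 14.8% of all tested genes. PCNA, the sliding clamp, was at 222, 267 and 239 in the controls and 179, 184 and 182 with TAZ. The TAZ libraries agreed to within 5 scaled TPM and sat below each control (-0.41 ± 0.16, 95% interval -0.78 to -0.03, adjusted p = 0.247). RFC5, a subunit of the clamp loader RFC, was at 33.4, 53.9 and 31.2 against 20.5, 25.7 and 28.9, with every TAZ library lower (-0.61 ± 0.26, adjusted p = 0.283; -0.37 without control 2). POLE2, the second subunit of the leading strand polymerase epsilon, was low, at 5.42, 7.35 and 9.83 in the controls and 2.56, 2.90 and 5.31 with TAZ. TAZ library 3 came close to control 1 (-0.91 ± 0.30, adjusted p = 0.196). The other clamp loader subunits overlapped between groups: RFC2 was at 55.0 ± 6.45 and 44.5 ± 4.82, RFC3 at 28.4 ± 0.85 and 25.9 ± 3.23, and RFC4 at 62.2 ± 15.3 and 51.7 ± 2.75. POLA1, the catalytic subunit of the priming polymerase alpha, was at 17.0 ± 1.81 and 14.2 ± 2.10, with TAZ libraries 2 and 3 just above control 3.

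In the maturation of Okazaki fragments and the repair of uracil, all 3 genes were below 0. FEN1, the flap nuclease that trims Okazaki fragments, was at 327, 256 and 256 in the controls and 187, 185 and 170 with TAZ. The gap between its groups was wider than the range of the TAZ libraries (-0.62 ± 0.17, adjusted p = 0.140). LIG1, the ligase that seals the fragments, was at 16.1 ± 3.08 and 10.6 ± 2.81, without overlap (-0.57 ± 0.25, adjusted p = 0.291). UNG, the uracil glycosylase, was at 89.0 ± 13.0 and 69.5 ± 10.01, where TAZ library 3 exceeded control 3.

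Nucleotide supply was the most scattered role. RRM2, the S phase subunit of ribonucleotide reductase, had the largest difference below 0 of the set, at 12.7, 16.8 and 57.1 in the controls and 5.63, 15.4 and 5.87 with TAZ. Control 3 was the highest library, and the difference was -1.42 ± 0.62 (adjusted p = 0.294) with that library and -0.79 without it. TK1, the salvage thymidine kinase, was also highest in control 3, at 80.9 ± 64.8 in the controls and 34.5 ± 12.8 with TAZ. TYMS, thymidylate synthase, was at 30.9 ± 18.9 and 37.6 ± 11.7, and RRM1, the large subunit of ribonucleotide reductase, at 71.9 ± 42.3 and 73.5 ± 16.6. Control 3 held the highest value of all 6 libraries for RRM2, TK1, TYMS and RRM1. With and without that library, the log2 difference was -0.90 and -0.27 for TK1, 0.38 and 0.83 for TYMS, and 0.16 and 0.59 for RRM1, and none of the 3 was called in either case.

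The cyclin E group showed no common direction, with differences from -0.18 to 0.84. CDK2, the kinase partner of cyclin E, was at 68.2 ± 21.0 and 58.1 ± 6.64, and CCNE1 (cyclin E1) at 11.1 ± 1.31 and 13.2 ± 7.37. CCNE2 (cyclin E2) was the least abundant gene of the set and had the largest difference above 0, at 2.54 and 0.145 and listed at 0 in controls 1 to 3, and at 2.33, 2.63 and 0.922 with TAZ. Control 1 lay within the TAZ range (0.84 ± 0.53, adjusted p = 0.448). The value of this low gene was 1.42 without control 1, 0.51 without control 3 and 2.24 with a pseudocount of 0.1 in place of 1. CDC25A, the phosphatase that activates CDK2, was at 3.00, 39.3 and 31.8 in the controls and 18.3, 18.2 and 15.6 with TAZ. The TAZ libraries were close together while the controls lay on both sides of them. The difference was 0.07 with all libraries and -0.99 without control 1 (adjusted p = 0.0836). It was 0.68 without control 2 and 0.53 without control 3, so its sign depended on which control was left out.

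The remaining genes act on chromatin and histone mRNA. SLBP, which binds the stem-loop of replication histone mRNA, was at 94.0 ± 7.04 and 88.1 ± 3.49. UHRF1, which brings DNA methylation to new DNA, was at 15.3 ± 7.21 and 17.7 ± 0.38. Neither was separate between the groups, and UHRF1 was spread in the controls and tight with TAZ.

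**Figure D3:**
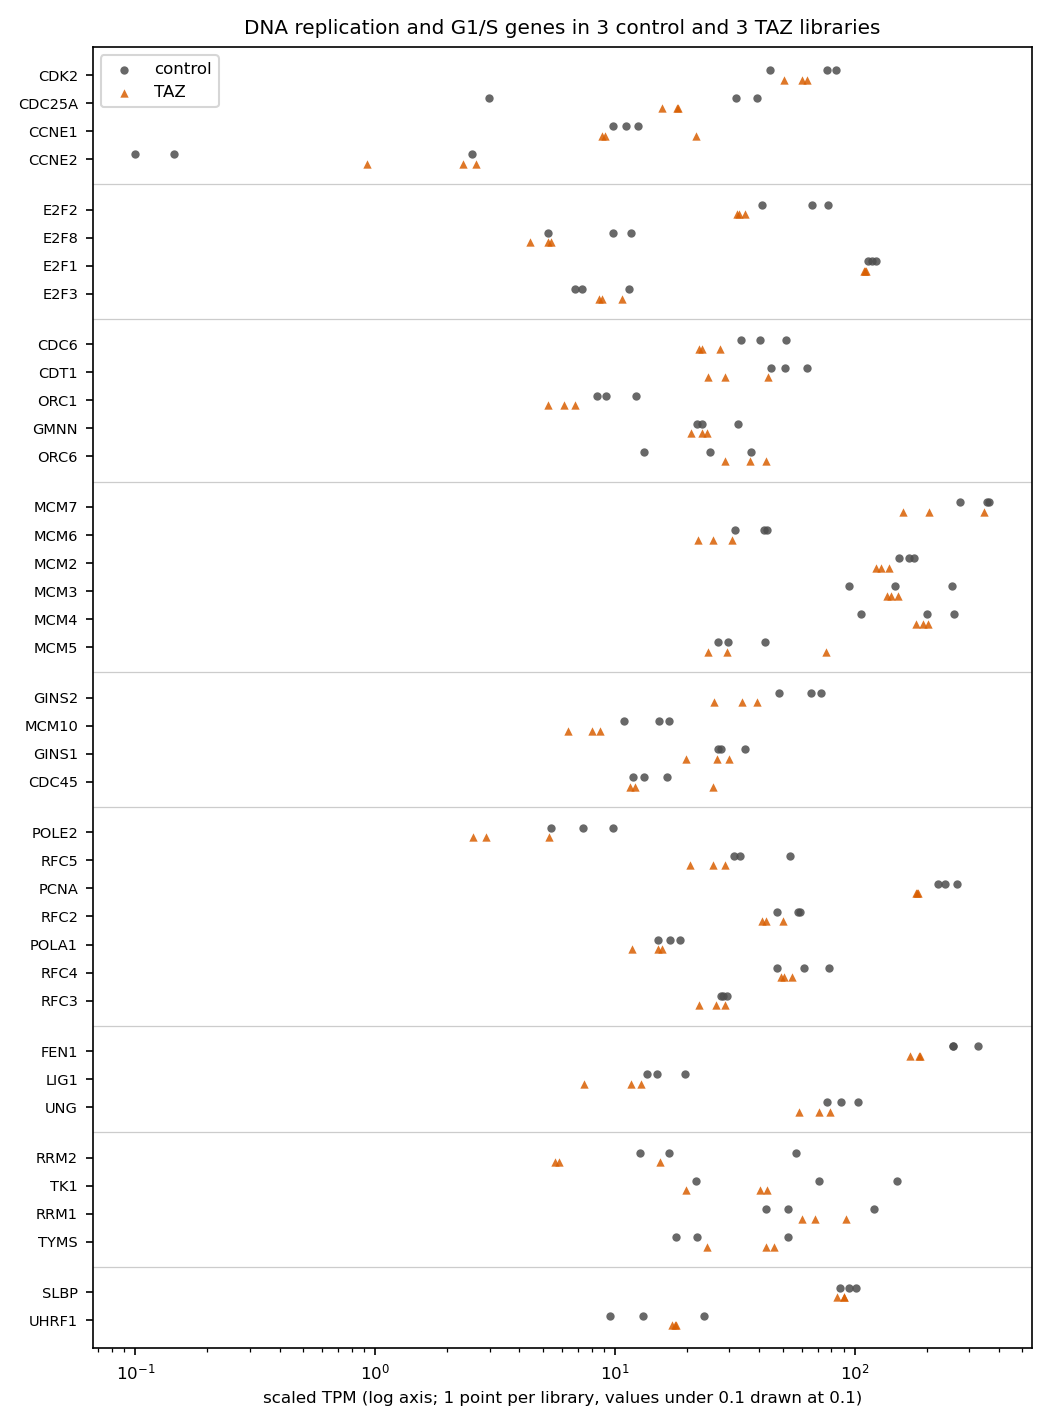
Scaled TPM (horizontal log axis) of the 39 genes in each library, with grey circles for the 3 controls and orange triangles for the 3 TAZ libraries, grouped by role. The triangles lie left of all circles in 14 genes, among them GINS2, MCM10, CDC6 and FEN1, while the nucleotide supply genes and CDC25A are spread over the controls.

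The exon values in the files limit how levels can be compared between genes and transcripts. Exons under 200 bases in transcripts of at least 1 TPM had a depth above 0 in only 25.5% to 38.6% of cases per library in the 39 genes, against 83.8% to 87.8% of longer exons. Over all genes the ranges were 30.0% to 35.0% and 87.1% to 88.2%. The exon block that held most bases was at least 200 bases long in 39 of 39 genes, and in 24 of them 1 block held over 50% of the aligned bases (median over libraries). For GINS2 this was the block at chr16:85709804-85711943 (hg19), with 88.5% to 100% of its bases, and for E2F2 the block at chr1:23832922-23836640, with 78.4% to 89.1%.

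**Figure D4:**
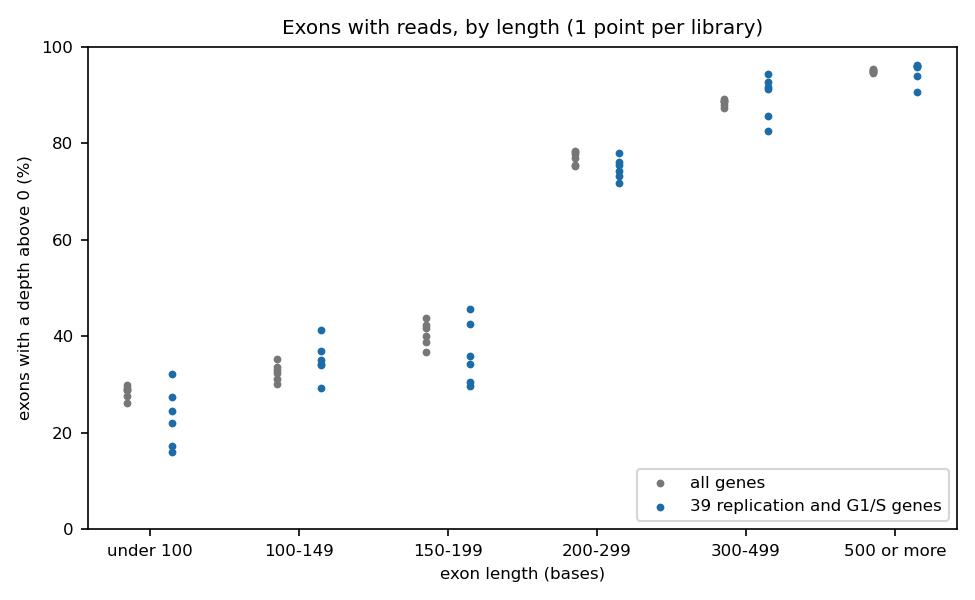
Percent of exons with a depth above 0 (vertical axis) by exon length in bases (horizontal axis), 1 point per library, for all genes in grey and the 39 genes in blue. Shares reach 45.6% at most in exons below 200 bases and are 71.7% or more in longer ones.

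Which transcript received the reads also varied between libraries. In 25 of the 39 genes the same transcript led in every library, and in 14 it did not; of 85 tested transcripts of these genes, 41 were at 0 in at least 1 library. RRM1 shows it: the short transcript ENST00000528442.1 (784 bases) was at 0 in controls 1 and 2, at 58.8 scaled TPM in control 3 and at 40.6 to 46.5 in the TAZ libraries, while the transcript ENST00000532170.1 (3166 bases) was at 42.2, 52.8 and 24.2 in the controls and 19.0 to 20.4 with TAZ. A short transcript takes more TPM for the same bases. UNG moved wholly to ENST00000539287.1 in TAZ library 2, and CCNE1 mainly to ENST00000574121.1 in the same library. MCM5 in TAZ library 1 had 41.8 of its 76.0 scaled TPM on ENST00000416905.1, which was at 0 or 0.763 in the others. In MCM7, ENST00000463722.1 was at 88.8 to 137 in 5 libraries and at 0.570 in TAZ library 3. In MCM2, ENST00000472731.1 (547 bases) was at 29.3 in TAZ libraries 2 and 3 and at 0 or 0.311 in the others.

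A pair of readouts that do not depend on the choice of transcript was therefore added after the values were seen. Aligned bases (coverage times length, summed per gene) gave 0 calls of 39 against 3.74% of all genes, 14 lower at an unadjusted p under 0.05 against 10.7%, 33 genes below 0, a median of -0.32, and 16 genes lower without overlap against 14.9%. Depth on exons with reads in all 6 libraries, available for 37 genes, gave 0 calls against 3.15%, 11 lower at an unadjusted p under 0.05 against 10.4%, 29 below 0, a median of -0.32, and 13 genes lower without overlap against 14.5%. The smallest adjusted p was 0.0981 with the first and 0.0921 with the second, both for GINS2. CDC6, CDT1, E2F2, FEN1, GINS2, MCM10, MCM2, MCM6, ORC1, PCNA and RFC5 were lower without overlap on scaled TPM and on both of these readouts. These are 11 of the 39, beside 11.9% of all tested genes that met the same joint condition.

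On the shared exons the difference of CDC6 was -0.38, beside -0.75 by scaled TPM. That of MCM2 was -0.56 by aligned bases and -0.50 on the shared exons, beside -0.35 by scaled TPM. RRM1 was the gene above 0 by scaled TPM that came out furthest below 0 on both readouts. Its scaled aligned bases, as a share of transcript bases, were 91.8, 115 and 98.6 in the controls and 69.3, 77.1 and 63.5 with TAZ, so that the groups were separate and the difference was -0.53 on the log2 scale (adjusted p = 0.154), where scaled TPM gave 0.16. MCM5, CDC45, MCM4 and CCNE1 also moved from above to below 0 with aligned bases, and MCM5 and CDC45 were above 0 again on the shared exons. CDC25A and MCM3 stayed uneven among the controls on both readouts: the aligned bases of CDC25A were 7.75 in control 1 against 102 and 82.3 in controls 2 and 3.

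**Figure D5:**
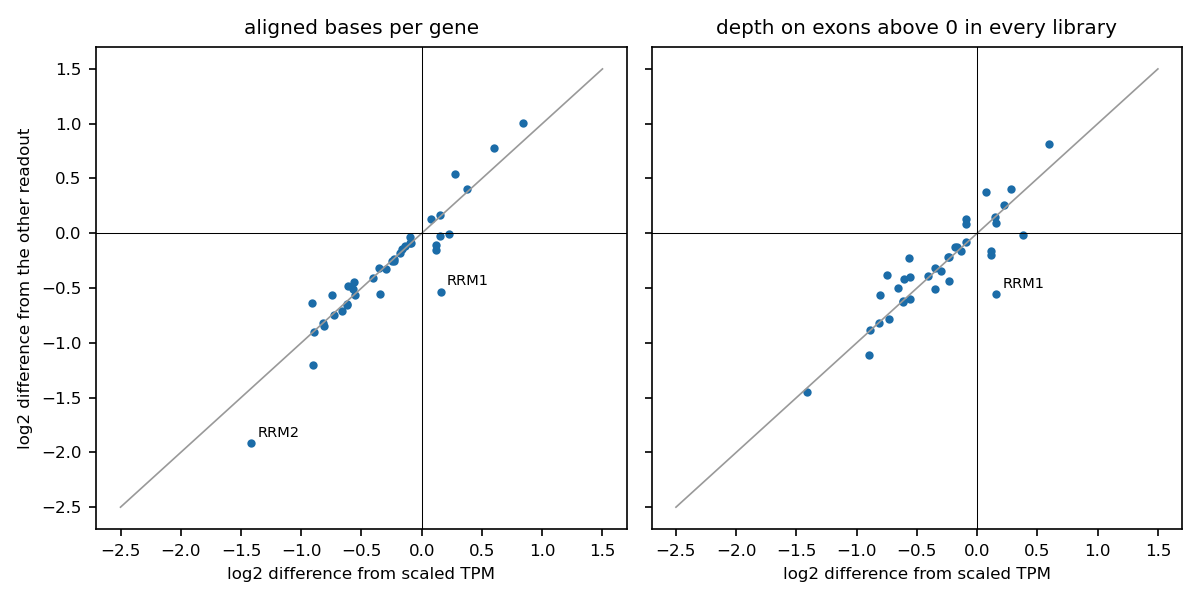
Log2 difference between TAZ and control from scaled TPM (horizontal axis) against the same from aligned bases per gene (left, 39 genes) and from depth on exons with reads in all 6 libraries (right, 37 genes), with the diagonal where both are equal. RRM1 lies below the diagonal in both panels, at 0.16 by scaled TPM and under -0.5 by the other readouts.

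At the level of single transcripts, 0 of 85 tested transcripts of these genes passed, against 1.60% of 29480 tested transcripts. Unadjusted p was under 0.05 for 14 lower, beside 6.27% of all tested transcripts, and for 1 higher. The leading transcript carried the whole gene in every library for PCNA (ENST00000379160.3) and ORC1 (ENST00000371568.3), and at least 98.6% of it for GINS2 (ENST00000253462.3), E2F2 (ENST00000361729.2), CDT1 (ENST00000301019.4) and MCM6 (ENST00000264156.2), so the values of these 6 genes are those of 1 transcript. For CDC6 the leading transcript ENST00000209728.4 was at 31.0, 39.7 and 33.5 in the controls and 22.4, 27.3 and 23.0 with TAZ. Control 1 was the lowest control on this transcript and the highest by gene sum. It held 20.5 scaled TPM on the short ENST00000577249.1, which was at 0 in the other 5 libraries. FEN1 was led by ENST00000305885.2, at 189 to 322 in the controls and 125 to 177 with TAZ, and E2F8 by ENST00000527884.1, at 4.53 to 11.1 and 3.92 to 4.98. MCM10 was led by ENST00000378694.1, at 7.13 to 11.3 and 3.86 to 8.63, MCM7 by ENST00000489841.1, at 157 to 227 and 112 to 242, and RRM2 in 5 of 6 libraries by ENST00000360566.2, at 6.66 to 48.5 and 1.94 to 5.58. No transcript led in all libraries in RFC5, POLE2 or CCNE2. In RFC5, ENST00000229043.3 and ENST00000392542.2 led in 3 libraries each. In POLE2, the short ENST00000553805.2 led in 4 libraries, and in CCNE2, ENST00000520509.1 was at 0 in 3 libraries.

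Overlapping genes touch some values, because the sources used here do not state whether strand was used in counting. In 8 of the 39 genes, exon blocks overlapped those of a gene on the opposite strand. The overlap covered 48.6% of the exon bases of CCNE2 (with INTS8) and 27.4% of those of TYMS (with ENOSF1 and C18orf56), and 8.94% or less in MCM7, FEN1, CDK2, RFC4, MCM2 and GINS2. The values of CCNE2 and TYMS are uncertain for this reason.

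Other genes of the same processes were taken from a list of 74 genes of replication and the G1/S step outside the set. On it 2 of 74 fell and 0 rose, a share no higher than the 3.21% of all tested genes called. Differences below 0 were 55 of 74 (74.3%), beside 54.8% of all tested genes, and the median was -0.26. CHAF1B, the middle subunit of the histone chaperone CAF-1 that works with PCNA, was at 12.1, 11.1 and 13.6 in the controls and 6.08, 5.90 and 6.47 with TAZ. It fell by 0.89 on the log2 scale (± 0.15, adjusted p = 0.0324), and the TAZ libraries lay close together far below the controls. CUL4A, a scaffold of the ubiquitin ligase that degrades CDT1, was at 22.5, 37.8 and 28.4 against 4.21, 12.1 and 5.54 and fell by 1.97 (± 0.38, adjusted p = 0.0488). Without scaling the adjusted p was 0.179 for CHAF1B and 0.0856 for CUL4A. Both were called lower in limma on aligned bases (adjusted p = 0.0168 and 0.00358) and on the shared exons (0.0202 and 3.49e-04). On each of these readouts they were the only 2 calls of the 74, beside 3.74% and 3.15% of all tested genes. The list had 0 calls without control 1 or without control 2, and 1 call without any of the TAZ libraries in turn. TFDP2, an E2F partner, was next by p, at 4.13 ± 0.58 and 0.927 ± 0.82 (adjusted p = 0.0744). Its difference was -1.49 by scaled TPM and -2.07 by aligned bases, but 0.36 on the shared exons.

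In the other direction no gene of that list passed in limma, and 2 had an unadjusted p under 0.05. ORC3, an ORC subunit, was at 8.53, 11.2 and 7.98 in the controls and 12.1, 13.1 and 16.1 with TAZ (0.53 ± 0.20, adjusted p = 0.232). By aligned bases and shared exons the difference of ORC3 was 0.60 and 0.64. FBXW7, which targets cyclin E for degradation, was at 13.4, 14.8 and 9.64 against 17.9, 15.8 and 22.3 (0.54 ± 0.22, adjusted p = 0.274). Its direction turned with the readout, to -0.48 by aligned bases and -0.38 on the shared exons. RB1, the retinoblastoma protein that holds E2F in check, was at 2.22, 3.17 and 5.61 against 6.25, 9.37 and 4.44, with overlap (0.73 ± 0.35, adjusted p = 0.329), and its difference was 0.17 and 0.06 on those readouts.

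Upstream of cyclin E, the D cyclins and the CDK inhibitors held 4 calls among 11 tested genes of a list of 12, 2 in each direction. The share called over all tested genes was 3.21%, but the list was chosen with earlier results of these data known. CCND2 (cyclin D2), which with CDK4 or CDK6 starts the phosphorylation of the retinoblastoma protein, fell from 328, 344 and 243 to 95.9, 118 and 107 (log2 difference -1.49 ± 0.20, adjusted p = 0.0115). CDKN1A (p21), an inhibitor of CDK2, rose from 5.21, 5.30 and 5.66 to 18.3, 12.1 and 13.7 (1.28 ± 0.19, adjusted p = 0.0186). CDKN2B (p15), an inhibitor of CDK4 and CDK6, rose from 27.4, 23.5 and 18.9 to 52.9, 47.9 and 48.7 (1.08 ± 0.18, adjusted p = 0.0311). CDKN2C (p18), of the same family, fell from 157, 121 and 137 to 66.8, 73.4 and 49.5 (-1.13 ± 0.21, adjusted p = 0.0416). Each of the 4 was separate between the groups. With 1 library fewer the list held 2 calls (without control 1 or TAZ 1) or 0 (without control 2, TAZ 2 or TAZ 3). It held 3 without control 3, beside 3.96% of all tested genes in that fit. The call of CDKN2C was lost without scaling (adjusted p = 0.102) and on the shared exons (adjusted p = 0.0641).

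Genes of the later G2/M step gave 0 limma calls of 26, beside 3.21% of all tested genes. Of their differences 21 (80.8%) were below 0, beside 54.8% of all tested genes, and the median was -0.36. At an unadjusted p under 0.05, 6 were lower and 1 higher, beside 2037 (10.5%) lower and 1446 higher of all 19390 tested genes. Without control 3 there were 2 calls of the 26, beside 3.96% of all tested genes. MYC, a transcription factor that drives E2F and replication genes in many tumours, was at 566, 569 and 377 in the controls and 375, 307 and 265 with TAZ. Control 3 and TAZ library 1 were nearly equal, and MYC did not pass (-0.66 ± 0.24, adjusted p = 0.231). In RNA of whole cultures, fewer cells in S phase and less RNA per cell cannot be told apart, and no cell cycle phase was measured in these libraries.

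Leaving out control library 3 changed calls. Without it, 3.96% of all tested genes were called, and 2 of the 39 genes passed, a share close to that background, both lower with TAZ: E2F2 (log2 difference -1.09, adjusted p = 0.0289) and E2F8 (-0.97, adjusted p = 0.0483). The set's median difference was then -0.34, and that of all tested genes -0.09. GINS2, MCM10 and CDC6 stood at adjusted p values of 0.0652, 0.0521 and 0.07 without it. No gene of the set passed when any other library was left out.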

How the data were processed

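RNA of 3 control and 3 TAZ libraries was measured, grouped by the labels. Per the submitters' processing notes, STAR 2.3.0, Bowtie2 2.0.0 and StringTie 1.3.3b were used with hg19. The sources used here do not name the annotation release. The deposited values are the authors' coverage, FPKM and TPM per transcript and coverage per exon, held as text in the other attributes of each line; no counts were used. Deposited TPM was summed per gene, scaled by the median of ratios over the 28148 genes above 0 in all libraries (factors 0.994, 0.944 and 0.873 in the controls, and 0.962, 1.20 and 1.23 with TAZ), and the 19390 genes averaging 1 TPM or more entered limma 3.58.1 in R 4.3.3 (trend and robust) as log2(scaled TPM + 1), without a block, with Benjamini-Hochberg adjustment over all tested genes at 0.05. On this scale the folds of low genes come out too small. Differences are TAZ minus control ± SE, and levels are mean ± SD, n = 3.

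The spread between libraries sets the precision, since no read counts were used. Spike-in RNA and chip, at 2 libraries per chip, are not analysed here. Same-numbered libraries did not deviate together (correlations -0.05 to 0.004), so numbers were not treated as pairs. The procedure was tried on simulated data with independent normal noise and planted changes. Those data held no outlying library and no shifts between transcripts, so they cannot show how the test behaves with either. Full values are given for the 12 genes of smallest p, the most and least abundant, and the largest difference each way; the list of 74 names passing genes and the 3 smallest p in each direction, and the G2/M and D cyclin lists only passing genes; other names, such as E2F1, RRM1 and the cell markers, were chosen after their values were seen. The members and lists were chosen with earlier results of these data known. Promoter sequences are from RefSeq.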

Additional observations from a re-analysis of the deposited data

How the results depend on the processing

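In 18 of 19 alternatives 0 of the 39 genes were called; the exception, without control library 3, had 2. Over the libraries left out in turn, the set's calls ran from 0 to 2. Its transcripts' calls ran from 0 to 4 (0 with all libraries, 3 without control 1 and 4 without control 3). The share called over all tested transcripts is given here only with all libraries (1.60%), so these 3 and 4 calls have no matching background. The calls on the list of 74 ran from 0 to 2. On the D cyclin list they ran from 0 to 3 (0 without control 2, TAZ 2 or TAZ 3), and on the G2/M list from 0 to 2 (2 without control 3). Calls over all genes ran from 278 (without TAZ 2) to 774 (without control 3), with 410 without control 1, 349 without control 2 and 331 without TAZ 3. The set's median was 0.002 without scaling and -0.11 with scaling on genes of at least 10 TPM; relative to the median of all tested genes it ran from -0.276 to -0.108 over the settings tried. The list of 74 had 0 calls without scaling, with scaling on genes of at least 10 TPM and with no filter on low values, and 1 with upper quartile scaling, quantile normalization or a pseudocount of 0.1 or 0.5. With no filter, the D cyclin list had 1 call and all genes 352, out of 46603 tested. With the replicate block, the fit for paired numbers, 236 genes were called in place of 623 (202 higher and 34 lower), with 1 on the list of 74 and 0 on the D cyclin list, and 1 of 6 libraries correlated best with its own number. Aligned bases, added after the values were seen, gave 1 call of 26 on the G2/M list, beside 3.74% of all tested genes. This was TPX2 (limma adjusted p = 0.0443), named after its values were seen. It was not called by scaled TPM (0.0631) or on the shared exons (0.0532). On exons with reads in all libraries, also added later, WWTR1 was at -0.17 (adjusted p = 0.374), because exons at 0 in the controls are left out by construction. The causes of the other changes were not tested. Of the 15 genes given in full, 0 changed sign in the alternatives run; CCNE2 had no value with FPKM, with a mean of at least 5 TPM or on the shared exons, and POLE2 none on the shared exons. With 3 libraries a group and a median SE of 0.254, a 2-fold difference at that SE would fall short of a call. GINS2, at -0.89 ± 0.23, had an adjusted p of 0.117 in limma.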
